A study of Mus musculus with 10 samples.

Results

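Nrf2 deficiency was compared with intact Nrf2 in freshly isolated mouse hepatocytes, with the state of the NF-kappaB subunit p65 held as a second factor. All 10 of the 10 RNA-seq libraries of the study entered the comparison, 5 of them Nrf2-deficient and 5 Nrf2-intact, and they were assigned by the genotype in the labels alone. The 5 Nrf2-deficient libraries came from 2 mice with floxed Nrf2 alleles (Nrf2 KO) and 3 mice with floxed Nrf2 and p65 alleles (DKO). The 5 Nrf2-intact libraries came from 3 wild-type C57BL/6J mice (control) and 2 mice with floxed p65 alleles (p65 KO). Every mouse, controls included, was an adult male of 8 to 9 weeks and received an adeno-associated virus of serotype 8 that carries Cre recombinase under the thyroxine-binding globulin promoter, which is active in hepatocytes. Cells were purified 12 days after the injection, with 1 library per mouse. The controls carried no floxed allele, so loss of Nrf2 and the floxed mouse line cannot be told apart in these groups.

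Nrf2, encoded by Nfe2l2, is a transcription factor that is held in the cytoplasm and marked for degradation by its partner Keap1. Oxidants and electrophiles release it, after which it binds antioxidant response elements together with small Maf proteins. In the liver it is known for its control of detoxification enzymes, of glutathione and thioredoxin metabolism and of NADPH supply.

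Values below are normalized counts, that is, the deposited estimated counts scaled to a common library size by the trimmed mean of M-values. The Nrf2 term is the log2 fold change of Nrf2-deficient against Nrf2-intact libraries at equal p65 status, from 1 additive edgeR quasi-likelihood fit over all 13641 genes with at least 10 counts in sum. A gene passed where its p-value, adjusted over all 13641 genes by the Benjamini-Hochberg method, was at most 0.05, and it was called where its change was also at least 2-fold. Library totals ran from 33707165 to 49897382 counts. All 10 hepatocyte markers checked were counted in all 10 libraries, and their summed level was 3595700 to 5656600 normalized counts against 7946 to 16213 for 12 Kupffer cell markers. C6 and Slc40a1 carried 66.2% to 98.0% of the Kupffer cell sum. The other 10 markers, a split made after the values were seen, ran from 204.5 in Nrf2 KO 2 to 5188 in p65 KO 1.

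The Nrf2 term called 55 genes, 0.403% of those tested, of which 43 (0.315%) were lower and 12 (0.088%) were higher in Nrf2-deficient hepatocytes. With no demand on the size of the change, 134 genes (0.982%) passed, 94 lower (0.689%) and 40 higher (0.293%). Scaling to equal library totals, which shifted the median of all genes by -0.133 on the log2 scale, gave 70 lower and 9 higher calls in place of 43 and 12. Enzymes of drug and xenobiotic metabolism led the decreases, among them glutathione S-transferases, glucuronosyltransferases, carboxylesterases and oxidoreductases. Of the 55 called genes, 54 had the same sign in both p65 states, and 44 had all 5 Nrf2-deficient libraries on 1 side of all 5 Nrf2-intact libraries. Such a full separation occurred in 2.87% of all genes tested, below in 1.58% and above in 1.29%.

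Nfe2l2, the targeted gene (ENSMUSG00000015839, chr2:75504739-75534985 on GRCm39, minus strand) did not fall in its gene total. Nfe2l2 had 2318, 1991 and 1990 normalized counts in control, 4738 and 5005 in Nrf2 KO, 1993 and 1997 in p65 KO and 4111, 3434 and 5240 in DKO. All 5 Nrf2-deficient libraries lay above all 5 Nrf2-intact libraries, and the gene was 2.23-fold higher (log2 fold change 1.15 ± 0.11 SE, adjusted p = 0.000547). A gene total sums reads over all exons, also those a floxed allele keeps, so it does not check the deletion, and the genotype names used here are those of the labels. Rela, which encodes p65, had 1182 to 1276 normalized counts in control, Nrf2 KO and p65 KO and 1034 to 1489 in DKO, and did not pass (log2 fold change 0.03 ± 0.097 SE, adjusted p = 0.912). No other gene within 5 Mb of Nfe2l2 passed among 48 tested. Of the 11 genes listed for Nrf2 and its regulators, Nfe2l2 was the only 1 that passed, and Keap1 gave -0.04 (adjusted p = 0.859).

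Glutathione S-transferases, which join glutathione to electrophiles, held decreases in the mu and alpha classes. Of 23 members tested, 8 were lower and 0 higher, with a list median of -0.65 against 0.00 for all genes. Gstm1 had 110480, 116090 and 95273 normalized counts in control, 16030 and 11566 in Nrf2 KO, 68984 and 62011 in p65 KO and 9477, 9883 and 13929 in DKO. The level of Gstm1 (chr3:107919380-107925380 on GRCm39, as for all positions given) was 6.77-fold lower (log2 fold change -2.76 ± 0.16 SE, adjusted p = 8.46e-06), with every Nrf2-deficient library below every Nrf2-intact library. Gstm3 had 6875, 4748 and 3313 normalized counts in control, 799 and 477 in Nrf2 KO, 6126 and 6020 in p65 KO and 820.5, 655 and 1529 in DKO. Gstm3 was 6.88-fold lower (log2 fold change -2.78 ± 0.28 SE, adjusted p = 0.000549), again with no overlap. Its genotype means were close in the 2 Nrf2-intact groups, whereas the Gstm1 level was lower in p65 KO than in control.

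In the alpha class, Gsta2, Gsta1 and Gsta13 stood out. Gsta2 had 1474, 1492 and 1784 normalized counts in control, 310.4 and 307 in Nrf2 KO, 891 and 1112 in p65 KO and 219, 370.3 and 212 in DKO. Gsta2 was 4.39-fold lower (log2 fold change -2.13 ± 0.17 SE, adjusted p = 9.48e-05). Gsta1 had 467, 408 and 381 normalized counts in control, 28.7 and 12.1 in Nrf2 KO, 213 and 365 in p65 KO and 0, 21.3 and 14.9 in DKO. All 5 Nrf2-deficient libraries had under 30 normalized counts of Gsta1, a 22.3-fold difference (log2 fold change -4.48 ± 0.45 SE, adjusted p = 0.000549). Gsta13 had 241, 212 and 154 normalized counts in control, 0 and 0 in Nrf2 KO, 171 and 263 in p65 KO and 0, 4.49 and 0 in DKO. With a floor of 3 counts per library, Gsta13 was at least 75.1-fold lower in Nrf2 KO than in control (adjusted p = 4.42e-05 for the Nrf2 term). The other members that passed were Gsta4 (-0.99), Gstm2 (-1.45) and Gstm6 (-0.65) on the log2 scale. Gsta1 (chr9:78137927-78149966) and Gsta13 (chr9:78164411-78176451) are closely related genes, as are the mu class genes among themselves, so the split of reads within each class is uncertain.

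Sums over a family do not depend on that split. The 7 mu class genes summed to 110470 to 133300 normalized counts in control, 18805 and 24865 in Nrf2 KO, 78384 and 84603 in p65 KO and 16064 to 24010 in DKO. The mu class sum was 5.71-fold lower in Nrf2 KO than in control and 4.29-fold lower in DKO than in p65 KO. The 5 alpha class genes were 1.71-fold and 1.97-fold lower in sum, with all 5 Nrf2-deficient libraries below all 5 Nrf2-intact libraries, as for the mu class. Gsta2, Gsta1 and Gsta13 averaged 1583, 419 and 202 normalized counts in control, where the alpha class sum averaged 60032. Most of that sum thus came from Gsta4 and from Gsta3, which did not pass, and it does not bear on the falls of Gsta2, Gsta1 and Gsta13. The 3 pi class genes did not separate in this way, at 2.32-fold lower in Nrf2 KO and 1.07-fold lower in DKO, whose 69210 to 101690 normalized counts overlapped the 89325 and 98625 of p65 KO. Family sums were not tested.

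**Figure D1:**
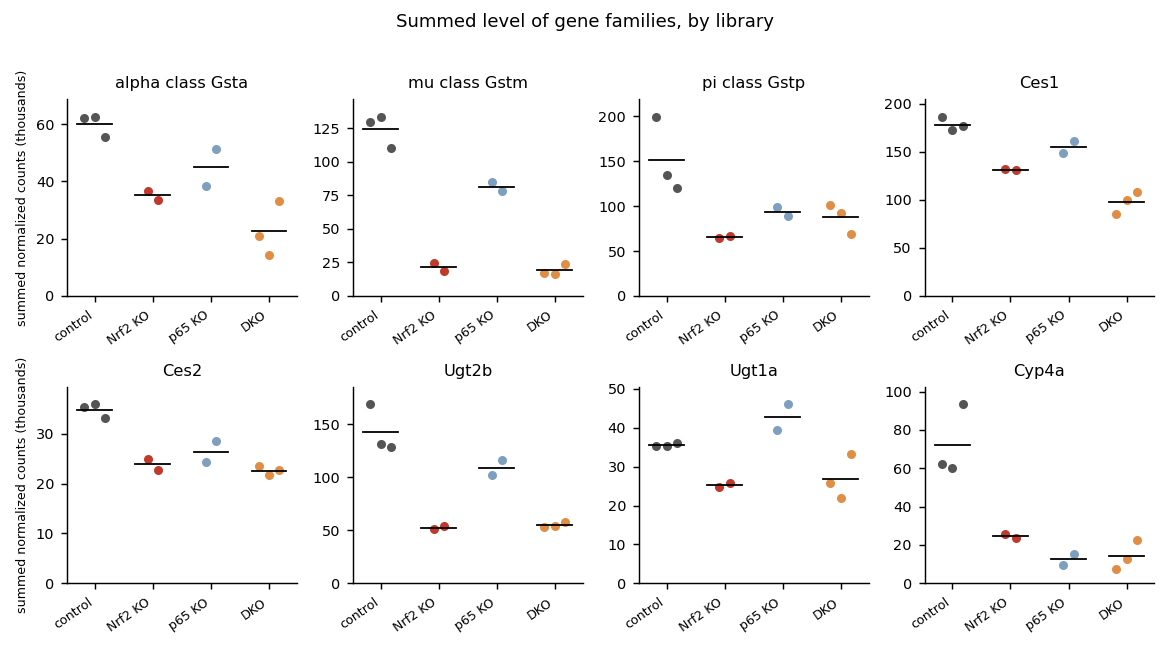
Summed normalized counts, in units of 1000, of 8 gene families in each library, with a point per library and a line at the genotype mean. The mu class (Gstm), alpha class (Gsta), Ces1, Ugt2b and Ugt1a sums of Nrf2 KO and DKO lie below those of control and p65 KO, while the pi class (Gstp), Ces2 and Cyp4a sums overlap.

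Glucuronosyltransferases attach glucuronic acid to drugs, bilirubin and steroids. In this list, which also holds Ugdh, 8 of 19 genes were lower and 0 higher (median -0.51). Ugt2b35 had 17494, 15107 and 10732 normalized counts in control, 3153 and 3216 in Nrf2 KO, 10804 and 10095 in p65 KO and 3366, 2791 and 2965 in DKO. Ugt2b5 had 66549, 47431 and 50173 normalized counts in control, 14609 and 14137 in Nrf2 KO, 35847 and 41603 in p65 KO and 12529, 15221 and 13343 in DKO. Ugt2b35 (chr5:87148701-87161742) was 3.95-fold lower (log2 fold change -1.98 ± 0.14 SE, adjusted p = 4.42e-05) and Ugt2b5 3.28-fold lower (log2 fold change -1.71 ± 0.14 SE, adjusted p = 8.95e-05), and neither overlapped between the Nrf2 states. The fall was seen in both p65 states, and all 5 Nrf2-deficient libraries lay near each other. The p65 KO libraries lay near the lowest control library for Ugt2b35 and below all control libraries for Ugt2b5. Ugt2b36 had 35168, 26564 and 29588 normalized counts in control, 12051 and 13360 in Nrf2 KO, 22294 and 24063 in p65 KO and 9896, 11171 and 12696 in DKO. Ugt2b36 was 2.22-fold lower (log2 fold change -1.15 ± 0.11 SE, adjusted p = 0.000549). Ugt1a6a had 6252, 6374 and 5626 normalized counts in control, 2213 and 2123 in Nrf2 KO, 5542 and 5150 in p65 KO and 1243, 2508 and 1887 in DKO. Ugt1a6a was 2.83-fold lower (adjusted p = 0.000746), and Ugt1a6b, which shares exons with it, gave -1.16 on the log2 scale. On the substrate side of the pathway, Ugdh and Slc35d1 moved the same way, the latter chosen after its value was seen. Ugdh, which makes the UDP-glucuronic acid that these enzymes use, gave -1.45 (adjusted p = 0.00191), and Slc35d1, which carries UDP-glucuronic acid into the endoplasmic reticulum, gave -0.67 (adjusted p = 0.00898). Over 7 genes the Ugt2b sum was 2.73-fold lower in Nrf2 KO and 1.99-fold lower in DKO, and over 9 genes the Ugt1a sum was 1.40-fold and 1.59-fold lower. No sulfotransferase passed among 7 tested (median 0.37).

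Carboxylesterases, which hydrolyse ester and amide drugs and lipids, fell in 6 of 14 members and rose in 0 (median -0.74). Ces1b had 3264, 2874 and 3116 normalized counts in control, 546 and 455 in Nrf2 KO, 4579 and 4523 in p65 KO and 381, 466 and 536 in DKO. Ces1g had 9798, 10076 and 10074 normalized counts in control, 1721 and 1191 in Nrf2 KO, 10831 and 11611 in p65 KO and 896, 1083 and 2042 in DKO. Ces1b (chr8:93780578-93806709) was 7.81-fold lower (log2 fold change -2.97 ± 0.15 SE, adjusted p = 4.65e-06), and Ces1g was 7.58-fold lower (log2 fold change -2.92 ± 0.21 SE, adjusted p = 4.42e-05). For both genes the Nrf2-deficient libraries were at similar levels whether or not p65 was intact, and Ces1b was higher in p65 KO than in control. Ces2c had 3599, 2898 and 1864 normalized counts in control, 373 and 423 in Nrf2 KO, 1522 and 2488 in p65 KO and 654, 211 and 577 in DKO. Ces2c was 5.39-fold lower (log2 fold change -2.43 ± 0.32 SE, adjusted p = 0.00398). Ces1d had 44735, 42045 and 36288 normalized counts in control, 20375 and 15874 in Nrf2 KO, 22482 and 27588 in p65 KO and 10515, 13329 and 17048 in DKO. Ces1d, the member with the highest level among those that passed, was 2.04-fold lower (log2 fold change -1.03 ± 0.15 SE, adjusted p = 0.00808). Ces1e and Ces1f passed as well, at -0.69 and -0.90 on the log2 scale. Many Ces1 genes lie in 1 cluster on chromosome 8, and their summed level was 1.36-fold lower in Nrf2 KO and 1.59-fold lower in DKO, with no overlap.

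Among enzymes for quinones, epoxides, carbonyls and aldehydes, 5 of 26 were lower and 0 higher (median -0.36). Aox1 had 6314, 5684 and 4227 normalized counts in control, 1228 and 990.2 in Nrf2 KO, 4093 and 3435 in p65 KO and 770.0, 1104 and 947 in DKO. Aox1 (chr1:58068908-58145995), an aldehyde oxidase, was 4.42-fold lower (log2 fold change -2.14 ± 0.15 SE, adjusted p = 3.47e-05). Ephx1 had 33305, 22781 and 22283 normalized counts in control, 7528 and 5947 in Nrf2 KO, 13650 and 12847 in p65 KO and 5807, 6295 and 7493 in DKO. Ephx1, the microsomal epoxide hydrolase, was 2.80-fold lower (log2 fold change -1.49 ± 0.20 SE, adjusted p = 0.00472), from a p65 KO level below that of control. Nqo1 had 218, 181 and 182 normalized counts in control, 84.0 and 63.0 in Nrf2 KO, 199 and 207 in p65 KO and 52.6, 71.8 and 103 in DKO. Nqo1, a quinone reductase and a classical Nrf2 target, was 2.66-fold lower (log2 fold change -1.41 ± 0.19 SE, adjusted p = 0.00423) although its level was low in every group. The Nqo1 libraries did not overlap between the Nrf2 states. Akr1c19 and Akr1c14, 2 aldo-keto reductases, gave -0.97 and -0.76 (adjusted p = 0.00639 and 0.0384).

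**Figure D2:**
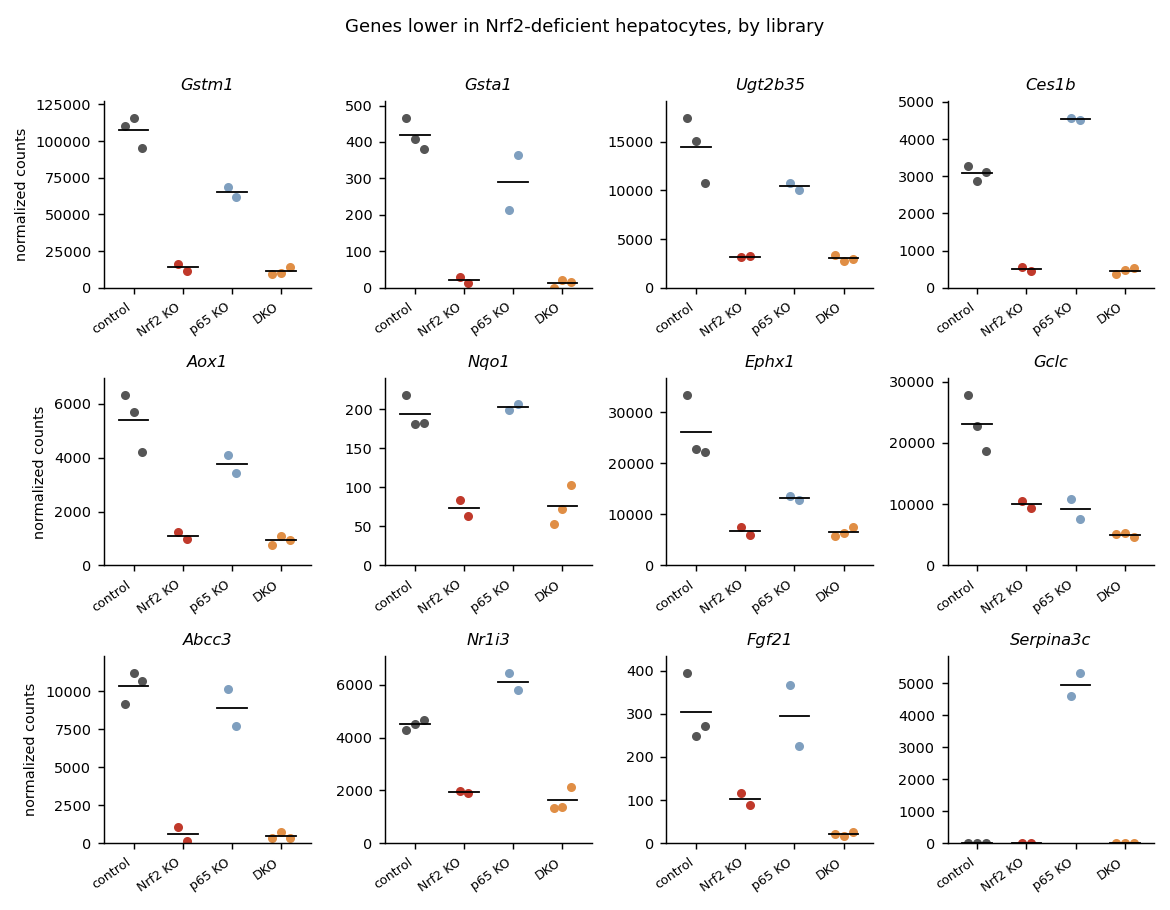
Normalized counts of 12 genes that were lower in Nrf2-deficient hepatocytes, 1 panel per gene with a point per library and a line at the genotype mean. In Gstm1, Ugt2b35, Ces1b, Aox1, Nqo1, Ephx1, Abcc3, Nr1i3, Gsta1 and Fgf21 all Nrf2 KO and DKO points lie below all control and p65 KO points, Gclc overlaps through p65 KO, and Serpina3c is high in p65 KO alone.

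Glutathione synthesis, thioredoxin recycling and NADPH supply held few genes that passed. Gclc had 27771, 22722 and 18703 normalized counts in control, 10523 and 9409 in Nrf2 KO, 10823 and 7563 in p65 KO and 5111, 5326 and 4600 in DKO. Gclc, the catalytic subunit of the enzyme that limits glutathione synthesis, was 2.06-fold lower (log2 fold change -1.04 ± 0.14 SE, adjusted p = 0.00472) and was the only 1 of 9 genes of its list that passed. The Gclc levels of p65 KO overlapped those of Nrf2 KO, and DKO was the lowest group. Without p65 as a second factor Gclc did not pass (adjusted p = 0.193). Gclm, the modifier subunit, gave -0.31 (adjusted p = 0.167). Of 17 genes of thioredoxin and peroxide defence, Txnrd1 (log2 fold change -0.66 ± 0.10 SE, adjusted p = 0.00972) and Srxn1 (log2 fold change -0.95 ± 0.16 SE, adjusted p = 0.0214) were lower. Txnrd1 had 6150, 5980 and 4728 normalized counts in control, 3479 and 3274 in Nrf2 KO, 4957 and 4787 in p65 KO and 2920, 3204 and 3682 in DKO. Srxn1 had 2269, 2040 and 1613 normalized counts in control, 780.0 and 806 in Nrf2 KO, 1148 and 1172 in p65 KO and 832, 628 and 875 in DKO. Neither gene overlapped between the Nrf2 states. Srxn1 missed the threshold when control 2, Nrf2 KO 1 or Nrf2 KO 2 was left out, with adjusted p of 0.0509 to 0.0882. None of 9 genes of NADPH supply passed, and G6pdx and Pgd, enzymes of the pentose phosphate pathway, gave 0.23 and 0.08 (adjusted p = 0.862 and 0.849).

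The bases before the start sites of these genes were searched for the core of the antioxidant response element. The letters TGACNNNGC were sought on both strands in the 1000 bases before the Ensembl canonical start site of each gene on GRCm39. A match was present in 37 of the 94 genes that were lower (39.4%), in 12 of the 40 that were higher (30.0%) and in 29.6% of all 13630 protein-coding genes tested with a start site. These shares are a description and were not tested. Matches lay before 9 of the 28 named genes that were lower, and before 3 of the 10 that were higher. The windows below are 49 bases on the strand that holds the motif, 5′ to 3′, with the motif in capitals, and show the match nearest the start site in 8 genes that fell and in Nfe2l2 itself.
Gsta1, chr9:78137225-78137273, plus strand, 682 bases before the start: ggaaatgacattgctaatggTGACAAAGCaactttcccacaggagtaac
Gsta13, chr9:78163701-78163749, plus strand, 690 bases before the start: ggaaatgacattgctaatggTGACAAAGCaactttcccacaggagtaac
Aox1, chr1:58068790-58068838, plus strand, 247 bases before the start: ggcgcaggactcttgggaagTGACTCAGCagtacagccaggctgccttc
Ugt1a6a, chr1:88065582-88065630, minus strand, 498 bases before the start: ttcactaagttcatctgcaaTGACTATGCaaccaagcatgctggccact
Ephx1, chr1:180845722-180845770, plus strand, 616 bases before the start: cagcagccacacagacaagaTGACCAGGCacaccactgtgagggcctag
Ces1d, chr8:93924901-93924949, plus strand, 463 bases before the start: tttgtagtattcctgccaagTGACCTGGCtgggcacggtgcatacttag
Degs1l, chr1:180878702-180878750, plus strand, 76 bases before the start: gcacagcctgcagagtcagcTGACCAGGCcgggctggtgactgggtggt
Txnrd1, chr10:82694928-82694976, minus strand, 65 bases before the start: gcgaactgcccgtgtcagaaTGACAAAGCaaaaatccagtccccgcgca
Nfe2l2, chr2:75535219-75535267, minus strand, 262 bases before the start: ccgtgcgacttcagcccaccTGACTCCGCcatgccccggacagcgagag
The windows of Gsta1 and Gsta13 are identical in all 49 bases, and both also hold a further match, tgacattgc, in lower case. Gsta1, Gsta13 and Txnrd1 share the letters TGACAAAGC. Gstm1, Nqo1 and Gclc had no match, which says only that these letters are not in these windows.

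The lists of transporters, of heme and iron and of cytochromes P450 each held 1 gene that was lower. Abcc3 had 9159, 11190 and 10670 normalized counts in control, 1048 and 137 in Nrf2 KO, 10123 and 7721 in p65 KO and 337, 727 and 352 in DKO. Abcc3 (chr11:94233874-94283823), a basolateral efflux pump for glucuronides and bile acids, was 18.2-fold lower (log2 fold change -4.19 ± 0.46 SE, adjusted p = 0.00107) and was the only 1 of 18 transporters of its list that passed, with all 5 Nrf2-deficient libraries at or under 1048. Abcc4 of the same list did not pass (adjusted p = 0.223). Ftl1 had 132180, 106210 and 112660 normalized counts in control, 57803 and 63566 in Nrf2 KO, 86702 and 85805 in p65 KO and 57109, 53427 and 67061 in DKO. Ftl1, the ferritin light chain, was 1.68-fold lower (log2 fold change -0.75 ± 0.12 SE, adjusted p = 0.0166), with no overlap, and missed the threshold without Nrf2 KO 1 or Nrf2 KO 2 (adjusted p of 0.0645 and 0.0732). Among the other 11 genes of heme and iron, Hmox1 gave -0.73 and Fth1 -0.39 (adjusted p = 0.121 and 0.213). Cyp2a5 had 10066, 4659 and 5153 normalized counts in control, 1059 and 1897 in Nrf2 KO, 28927 and 36009 in p65 KO and 2149, 2538 and 9577 in DKO. Cyp2a5, a coumarin hydroxylase, was 5.54-fold lower (log2 fold change -2.47 ± 0.42 SE, adjusted p = 0.0196), but its highest DKO library reached the control range, and the call was lost without Nrf2 KO 1 or p65 KO 2 (adjusted p of 0.0684 to 0.073). It was the only 1 of 39 cytochromes P450 of families 2 and 3 that passed, and Cyp2b10 did not pass (adjusted p = 0.207).

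Regulators and secreted factors were also among the decreases. Nr1i3 had 4301, 4522 and 4679 normalized counts in control, 1966 and 1892 in Nrf2 KO, 6446 and 5794 in p65 KO and 1329, 1384 and 2148 in DKO. Nr1i3 (chr1:171041506-171048270), which encodes the xenobiotic receptor CAR, was 2.97-fold lower (log2 fold change -1.57 ± 0.16 SE, adjusted p = 0.000777), with no overlap. It shares 4693 bases on chromosome 1 with Tomm40l on the opposite strand, which was higher (log2 fold change 0.95 ± 0.14 SE, adjusted p = 0.00792), and the counting was stated to use strand. Fgf21 had 394, 248 and 273 normalized counts in control, 117 and 88.1 in Nrf2 KO, 366 and 226 in p65 KO and 22.1, 15.7 and 25.2 in DKO. Fgf21 (chr7:45263301-45266963), a liver hormone, was 5.95-fold lower (log2 fold change -2.57 ± 0.39 SE, adjusted p = 0.00972), the only 1 of 15 genes of the integrated stress response list that passed, while Atf4 gave -0.19 (adjusted p = 0.435). The log2 fold change of Fgf21 was -1.58 with p65 intact and -3.81 with p65 deficient, and the adjusted p of that difference was 0.052, the lowest interaction value among the 55 called genes. Among 27 PPARalpha targets, Cyp4a10 and Cyp4a14 gave -0.91 and -1.39 (adjusted p = 0.718 and 0.521).

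Degs1l and Serpina3c were also among the 10 largest decreases of called genes that averaged 50 or more normalized counts. Degs1l had 993, 746 and 649 normalized counts in control, 54.4 and 19.4 in Nrf2 KO, 647 and 569 in p65 KO and 38.9, 51.6 and 135 in DKO. Degs1l was 12.8-fold lower (log2 fold change -3.68 ± 0.41 SE, adjusted p = 0.00124), with no overlap. Serpina3c had 7.73, 9.83 and 1.87 normalized counts in control, 0 and 1.62 in Nrf2 KO, 4586 and 5314 in p65 KO and 6.31, 1.12 and 2.29 in DKO. Serpina3c, a serine protease inhibitor gene, had the largest decrease among the 13641 genes (log2 fold change -10.11 ± 0.55 SE, adjusted p = 5.69e-06), which rested on the p65 KO libraries. In the p65-intact state it had at most 10 normalized counts in any library (adjusted p = 0.369), and with limma on log2 values at a pseudocount of 1 it did not pass (adjusted p = 0.0577).

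Increases were fewer than decreases. Cyp17a1 had 85.0, 125 and 191 normalized counts in control, 417 and 698 in Nrf2 KO, 129 and 178 in p65 KO and 1661, 534 and 1960 in DKO. Cyp17a1, a steroid hydroxylase and lyase, was 6.12-fold higher (log2 fold change 2.61 ± 0.40 SE, adjusted p = 0.00972), the largest called increase apart from the low-count Hmgn2-ps, and gave an adjusted p of 0.0574 without p65 KO 2. Sgk1 had 231, 131 and 138 normalized counts in control, 803 and 437 in Nrf2 KO, 317 and 324 in p65 KO and 1136, 784 and 803 in DKO. Sgk1, a kinase induced by glucocorticoids, was 3.24-fold higher (log2 fold change 1.70 ± 0.21 SE, adjusted p = 0.00279). Gas1 had 244, 239.9 and 253 normalized counts in control, 505 and 394 in Nrf2 KO, 145 and 154 in p65 KO and 323, 332 and 479 in DKO. Gas1, a membrane protein of growth-arrested cells, was 2.14-fold higher (adjusted p = 0.0051). Every Nrf2-deficient library lay above every Nrf2-intact library in Cyp17a1, Sgk1 and Gas1. Nfe2l2 and Sgk1 were the 2 increases of the 10 named here that passed under all 22 other settings tried.

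Tat had 39385, 25764 and 31131 normalized counts in control, 72410 and 43003 in Nrf2 KO, 30931 and 22510 in p65 KO and 69715, 124750 and 101870 in DKO. Tat, a tyrosine aminotransferase and a hepatocyte marker, was 2.58-fold higher (log2 fold change 1.37 ± 0.27 SE, adjusted p = 0.0401). The other hepatocyte markers did not pass, with Alb at 0.22 and Apoa1 at 0.27 (adjusted p = 0.474 and 0.343). Acot11 had 97.2, 103 and 81.3 normalized counts in control, 179 and 176 in Nrf2 KO, 103 and 91.7 in p65 KO and 428, 231 and 596 in DKO. Acot11, an acyl-CoA thioesterase, was 2.86-fold higher (log2 fold change 1.51 ± 0.29 SE, adjusted p = 0.0394). Cd4 had 23.2, 34.4 and 14.0 normalized counts in control, 62.3 and 58.2 in Nrf2 KO, 17.3 and 22.7 in p65 KO and 139, 75.2 and 64.1 in DKO. Cd4 was 3.39-fold higher (log2 fold change 1.76 ± 0.35 SE, adjusted p = 0.0422), at low levels. It is a T cell marker, yet Cd3e, Cd3d and Cd8a held 10, 10 and 8 counts in all over the 10 libraries, and Cd3e and Cd3d did not pass (adjusted p = 0.408 and 0.401). Tat, Acot11 and Cd4 did not overlap between the Nrf2 states. Fam131c (1.43), Chic1 (1.18) and Adprh (1.04) were called with some overlap between the 2 p65 states. Fam131c lies in the window of chromosome 4 given under the other observations, where genotype and mouse line cannot be told apart.

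These 6 calls depended on single libraries. Cd4 did not pass when any 1 of control 1, control 3, Nrf2 KO 1, Nrf2 KO 2, p65 KO 1, p65 KO 2, DKO 1 or DKO 2 was left out (adjusted p of 0.0648 to 0.162). Acot11 did not pass when any 1 of the 3 control libraries, Nrf2 KO 1, p65 KO 1, p65 KO 2 or DKO 1 was left out (adjusted p of 0.0579 to 0.166). Tat and Chic1 did not pass when any 1 of control 2, control 3, Nrf2 KO 1, p65 KO 1, p65 KO 2, DKO 1 or DKO 3 was left out (adjusted p of 0.0648 to 0.153 for Tat and 0.0597 to 0.16 for Chic1). Fam131c did not pass when any 1 of control 2, control 3, Nrf2 KO 1, Nrf2 KO 2, p65 KO 2 or DKO 1 was left out (adjusted p of 0.0659 to 0.134). Adprh did not pass when any 1 of control 2, control 3, Nrf2 KO 1, p65 KO 1, p65 KO 2 or DKO 1 was left out (adjusted p of 0.0591 to 0.13). The direction was the same in every 1 of these fits.

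**Figure D3:**
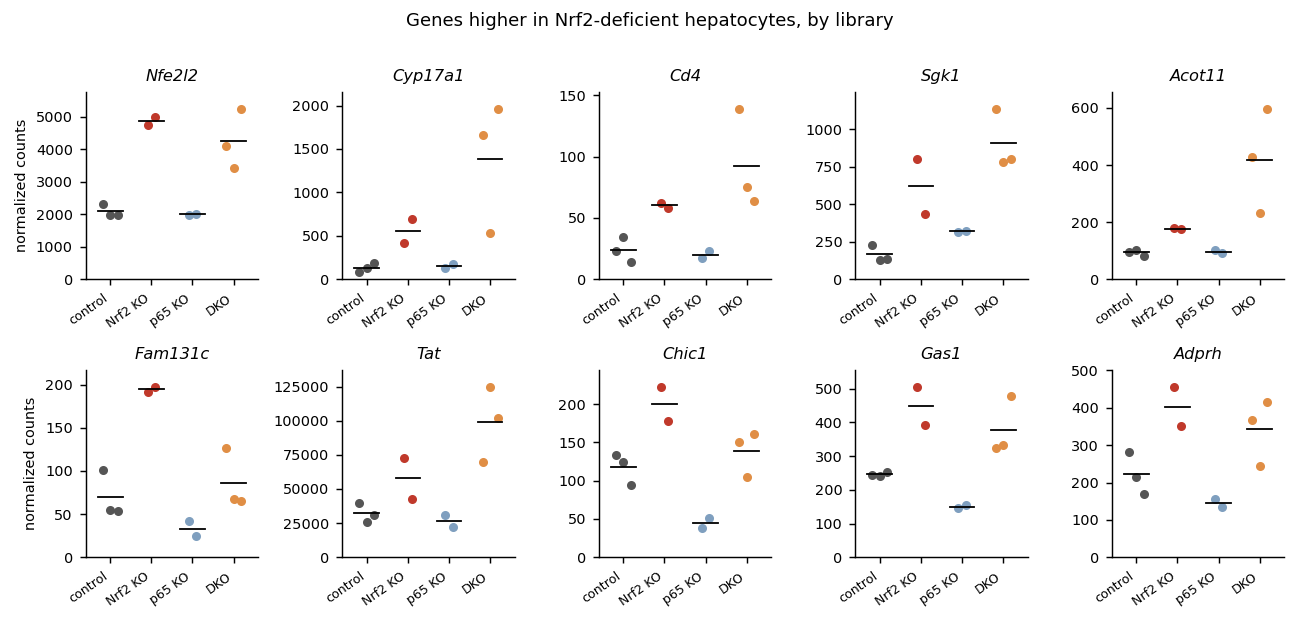
Normalized counts of 10 genes that were higher in Nrf2-deficient hepatocytes, with a point per library and a line at the genotype mean. All Nrf2 KO and DKO points lie above all control and p65 KO points in Nfe2l2, Cyp17a1, Cd4, Sgk1, Acot11, Tat and Gas1, whereas Fam131c, Chic1 and Adprh overlap between the p65 states.

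Both p65 states were then set side by side, since the contrast of Nrf2 KO against control and that of DKO against p65 KO share no library. With p65 intact, 75 genes (0.55%) were called, and with p65 deficient 243 (1.78%). Of the 75, 60 had the same sign in the p65-deficient state, 33 of them with an adjusted p of at most 0.05 there, and 2 passed in the opposite direction. Of the 243, 140 (57.6%) had the same sign in the p65-intact state, against a same-sign share of 54.0% among all genes tested. In that state 26 of the 243 passed in the same direction, 24 lower and 2 higher, and 3 passed in the opposite direction. Across the 10185 genes that averaged 50 or more normalized counts, the Pearson correlation of both contrasts was 0.143, as a description over genes that are not independent.

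Most genes called for the Nrf2 term had the same direction in both states. Over all genes tested, 0.726% passed with p65 intact and 4.11% with p65 deficient. Among the 55 called, 29 passed in each state alone, 19 in the p65-deficient state only, 3 in the p65-intact state only and 4 in neither. Libraries were apart in the same direction within both p65 states in 54 of the 55, against 7.26% of all genes tested. The fit favours genes that differ the same way in both states, so these counts describe what it selects. The exception was Hmgn2-ps, at 0 in all 5 p65-intact libraries. The interaction of Nrf2 and p65 had an adjusted p of at most 0.05 in 0 of the 134 genes that passed in edgeR. At an unadjusted p under 0.05 the interaction held 1888 of all 13641 genes, and the DESeq2 Wald test called 244 genes against 62 (0.455%) by edgeR, 36 positive (0.264%) and 26 negative (0.191%). Counts of a single state rested on single libraries. Without control 1, control 2, Nrf2 KO 1 or Nrf2 KO 2, the p65-intact count was 37, 40, 32 or 18 in place of 75. Without p65 KO 1, p65 KO 2 or DKO 1, the p65-deficient count was 70, 72 or 112 in place of 243. The count of the Nrf2 term over both states stayed between 41 and 63.

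**Figure D4:**
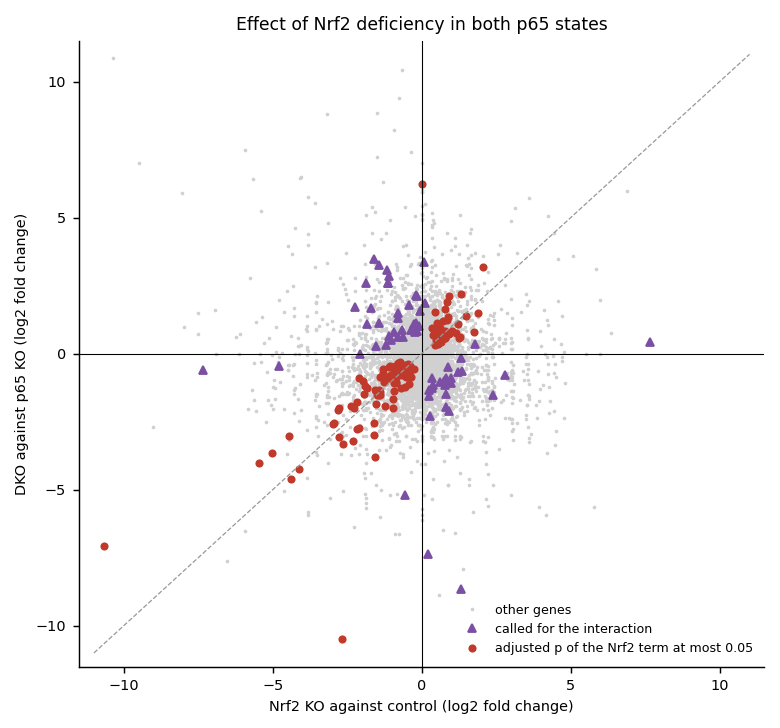
Log2 fold change of each tested gene for Nrf2 KO against control (horizontal) and DKO against p65 KO (vertical), with the dashed line at equality. The 134 genes that passed for the Nrf2 term (red) lie in the lower left and upper right, and the 62 genes called for the interaction (purple triangles) lie mostly in the other quadrants.

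Other lists held no gene that passed. These were NADPH supply, sulfotransferases, lipogenesis (18 genes, median 0.47), cholesterol synthesis (19 genes, -0.01), bile acid synthesis (10 genes, 0.06), glucose and glycogen metabolism (18 genes, 0.21), cell cycle (34 genes, -0.57), clock (19 genes, 0.00), proteasome subunits (32 genes, 0.10), acute phase (19 genes, 0.16), NF-kappaB targets (19 genes, -0.12), MHC class II with the interferon gamma response (21 genes, -0.48) and the growth hormone axis (13 genes, 0.13). The medians of the p65 states lay furthest apart in 3 lists, picked after the values were seen, and the difference was not tested over a list. Medians lay apart to a lesser degree in others. NF-kappaB targets had 0.03 with p65 intact and -0.47 with p65 deficient, and NADPH supply had -0.16 and 0.27. PPARalpha targets had a median of -0.82 with p65 intact, where 8 of 27 genes were lower against 0.594% of all genes, and 0.01 with p65 deficient, where 1 was lower and 1 higher against 2.06% and 2.05% of all genes, with 2 genes past the interaction test against 0.469% of all genes. The MHC class II and interferon gamma list had a median of 0.08 with p65 intact and -1.22 with p65 deficient, where 9 of 21 genes were lower, with 2 past the interaction test. The clock list had 0.34 and -0.72, with 0 past the interaction test.

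**Figure D5:**
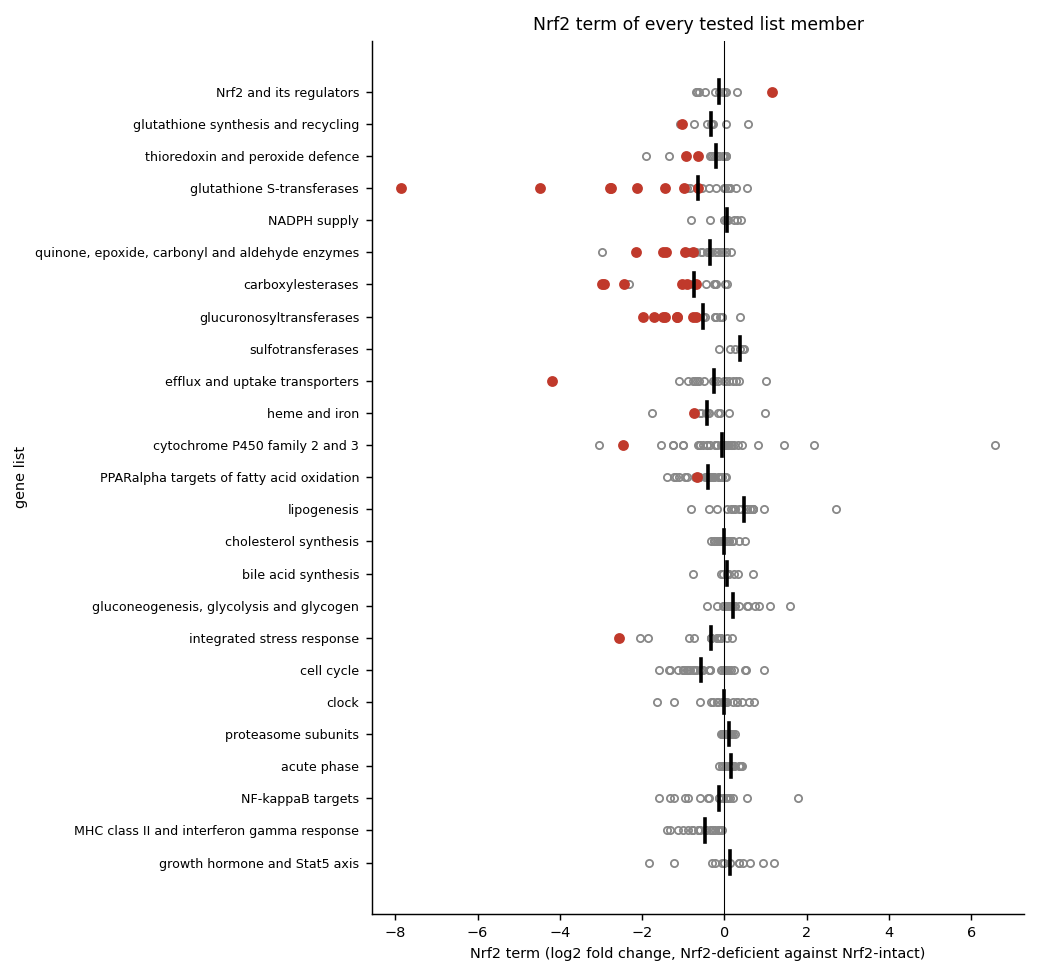
Nrf2 term of every tested member of 25 gene lists as a log2 fold change, with members that passed in red, other members as open circles and the list median as a black bar. Decreases that passed gather in the lists of glutathione S-transferases, carboxylesterases, glucuronosyltransferases and quinone, epoxide, carbonyl and aldehyde enzymes.

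Markers of other liver cells did not pass in the Nrf2 term apart from Cd4, and their summed levels, which were not tested, are given by genotype. In a bulk library, fewer cells of a type and less RNA per cell cannot be told apart. All 12 Kupffer cell markers had a negative Nrf2 term, as had 6797 of all 13641 genes tested. Their median was -0.78, at -0.59 with p65 intact and -1.17 with p65 deficient. Their sum was 11292 to 16213 normalized counts in control, 7946 and 8962 in Nrf2 KO, 15350 and 15749 in p65 KO and 9358 to 13350 in DKO. C6 and Slc40a1 carried 66.2% to 98.0% of that sum. Without them, a choice made after their values were seen, the other 10 Kupffer cell markers summed to 330.2, 781 and 635 in control, 682 and 204.5 in Nrf2 KO, 5188 and 3803 in p65 KO and 2467, 1717 and 1436 in DKO. All 10 stellate cell markers were negative too (median -1.01), but their median was 0.02 with p65 intact and -1.75 with p65 deficient. They summed to 277 to 514 in control, 224 and 426 in Nrf2 KO, 2605 and 2770 in p65 KO and 506 to 1322 in DKO. The 10 sinusoidal endothelial markers had a median of -0.41, at 0.15 with p65 intact and -0.92 with p65 deficient. They summed to 868 to 1819 in control, 1137 and 2132 in Nrf2 KO, 4657 and 6380 in p65 KO and 2427 to 3447 in DKO. The 6 monocyte and dendritic cell markers summed to 61.8 to 145 in control, 55.0 and 129 in Nrf2 KO, 461 and 567 in p65 KO and 231 to 346 in DKO. The p65 KO libraries held the highest stellate, endothelial and monocyte sums and the highest sum of the 10 Kupffer cell markers other than C6 and Slc40a1, and no DKO library reached them. The 3 B cell and 5 erythroid markers (medians 0.83 and 1.44) went the other way, with DKO above p65 KO in sum. The B cell sum was 86.1 to 391 in control and 134 and 156 in Nrf2 KO. It was 51.8 and 74.7 in p65 KO and 163 to 452 in DKO. The erythroid sum was 3362.1 to 4674.5 in control and 3649.5 and 3782.5 in Nrf2 KO. It was 3133 and 3516 in p65 KO and 4730 to 5605 in DKO. Of the neutrophil markers Ly6g was at 0 in all 10 libraries. With p65 intact, the sums of all 12 Kupffer cell markers and of 3 cholangiocyte markers (266 to 391 in control, 150.3 and 194 in Nrf2 KO) did not overlap between control and Nrf2 KO, nor did those of T and NK cell markers (14.0 to 36.4 against 59.0 and 62.3) and of neutrophil markers (0.934 to 3.31 against 5.93 and 7.27), whereas the stellate, endothelial and monocyte sums and that of the 10 Kupffer cell markers did. The T and NK cell sum was almost all Cd4, at 23.2, 34.4 and 14.0 in control and 62.3 and 58.2 in Nrf2 KO. The neutrophil sums there were a few counts per library. With so few libraries per genotype, sums can lie apart by chance alone. The share of all genes that lie apart within the p65-intact state is not given for comparison. No difference between control and Nrf2 KO is therefore read from these marker sums. The part of other liver cells in the results, MHC class II genes included, was not tested.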

How the data were processed

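RNA was read single-end from poly(A)-selected, stranded libraries, 1 per mouse. The authors made the deposited table with Salmon 1.10.3 on GRCm39 (GENCODE M33, stranded mode with sequence bias correction), as estimated counts per gene. The step from transcripts to genes is not given in the sources used here. The table is called normalized, but its columns are whole numbers with unequal totals of 33707165 to 49897382, so they were treated as estimated counts. The submitters' notes also name DESeq2 1.42.1. The depth covers counting error only. The labels name separate mice as replicates.

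Genes with a summed count of at least 10 entered edgeR 4.0.16 (R 4.3.3), scaled by the trimmed mean of M-values. The quasi-likelihood fit had p65 status and Nrf2 status as terms over all 10 libraries. Each SE was derived as the absolute log2 fold change divided by the square root of the F statistic of that test. Each p65 state and the interaction came from a model of the 4 genotypes. P-values were adjusted over all genes by the Benjamini-Hochberg method, and a fold of 2 was required for a call. All 10 value columns were used and 0 were left out. Identifiers were matched to GENCODE M39 on GRCm39 (21926 of 21939). Other tools were limma 3.58.1, DESeq2 1.42.0, Python 3.11.15, pandas 2.3.3, NumPy 2.4.6 and Matplotlib 3.10.9. The fit was tested on simulated counts of 13467 genes for the Nrf2 term, where 189 of 200 changed genes were recovered with 5 false calls. The changes set there were all larger than 2-fold, lay in genes away from low counts and held no interaction. Recovery and false calls therefore do not carry over to changes near or under 2-fold, to low counts or to genes with an interaction.

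Genes were named by rule: the targeted genes, up to 10 largest changes per direction among called genes averaging 50 normalized counts or more whose libraries did not overlap within either p65 state, the 10 lowest p-values, up to 4 members per list that passed with up to 2 first-written members that did not (printed for lists with a member that passed and for NADPH supply), the 5 lowest interaction p-values, and called genes within 5 Mb of Nfe2l2. Other genes were chosen after their values were seen. These are Tomm40l, Slc35d1, Ces1e, Ces1f, Ugt1a6b, Gstm2, Gstm6, Gsta4, Akr1c14, Hmgn2-ps, Cd8a, Ly6g and the genes of the other observations, where not named by the rule. The comparison, the lists and the naming rule were chosen with earlier results of these data known. Alternatives were other scalings, filters, tests, terms, a replicate block and each library left out. The result of 1 named gene is not reported here.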

Additional observations from a re-analysis of the deposited data

Results flagged for a closer look

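The effect of Nrf2 deficiency differed between the p65 states in a test of the difference itself. The interaction of Nrf2 and p65 status called 62 genes (0.455% of 13641) in the edgeR quasi-likelihood fit, 36 with a more positive and 26 with a more negative effect in p65-deficient cells. In 54 of the 62 the sign differed between the states, and 0 of the 62 passed for the Nrf2 term. Opposite effects cancel in the additive term, so that count follows largely from how the 62 were selected. Of the 62, 10 lay between 140 and 157 Mb of chromosome 4, a window chosen after its values were seen. They were 6.45% of the 155 genes tested there, against 0.455% of all genes. Genotype and mouse line cannot be told apart in that window. The count was 8 without Nrf2 KO 2 and 119 without DKO 2.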

How the results depend on the processing

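All 134 genes that passed kept their direction under the 22 other settings, and with 1 library left out 37 to 49 of the 55 called genes stayed called. Of the 134, however, 62 to 97 still passed with 1 library left out, and the number was 87 without control 1, 81 without control 2, control 3 or Nrf2 KO 2, 63 without Nrf2 KO 1, 79 without p65 KO 1, 62 without p65 KO 2 and 76 without DKO 1. Under the replicate block 76 still passed, and without the p65 term 65. The Nrf2 term called 39 to 79 genes under most settings, 41 to 63 of them over single libraries left out, but 132 by the DESeq2 Wald test, 85 as an equal-weight average of both p65 states and 134 by adjusted p alone. With p65 intact the count was 130 by DESeq2 and 18 to 84 with 1 library left out. With p65 deficient it was 441 by DESeq2, 504 with equal library totals, 365 by limma at a pseudocount of 10, 105 from the 5 libraries of that state, 561 by adjusted p alone and 70 to 294 with 1 library left out. The interaction count was 244 by DESeq2, 118 with equal library totals, 137 without a filter and 8 to 119 with 1 library left out. Equal library totals moved the share of lower calls from 78.2% to 88.6% for the Nrf2 term, from 54.3% to 82.9% with p65 deficient and from 41.9% to 77.1% for the interaction, with shifts of the all-gene median of -0.133, -0.269 and -0.271. The cause was not tested.

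Among genes that did not pass, equal library totals turned Rela to -0.10 and Pgd to -0.055. With 1 library left out, the log2 fold change was -0.037 to 0.082 for Rela, -0.084 to 0.0071 for Keap1, -0.18 to 0.51 for G6pdx, -0.035 to 0.16 for Pgd and -1.86 to 0.050 for Cyp4a10. Of 38 named genes that passed, 23 did so under all 22 settings. Without the p65 term Fgf21, Gas1, Adprh, Serpina3c, Gclc, Cyp2a5, Fam131c and Chic1 missed the threshold (adjusted p of 0.0608 to 0.357). The replicate block called 48 genes for the Nrf2 term, 56 with p65 intact, 181 with p65 deficient and 53 for the interaction. Genes that missed the threshold under it included Acot11, Srxn1, Tat, Cd4 and Chic1 (adjusted p of 0.0504 to 0.0973). Deviations of same-numbered libraries from their genotype means correlated at -0.232 to 0.113 over 13 pairs, against -0.17 to 0.232 over 24 pairs of different number. In a genotype with 2 libraries these deviations mirror each other, so the check cannot decide whether the numbers pair the libraries. Depth limits low genes, and 8 of the 55 called averaged under 50 normalized counts.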

Other observations

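Outside the lists, 96 genes passed for the Nrf2 term, 59 lower and 37 higher, and those named here were chosen after their values were seen. Pir, an iron-binding nuclear protein, was lower (log2 fold change -0.98), as were Entpd5, a nucleotidase of the endoplasmic reticulum (-1.40), and Adora1, an adenosine receptor (-2.09). Abcg5 and Abcg8, whose products form the sterol export pump of hepatocytes, gave -0.62 and -0.60. Hyou1 and Manf, both of protein folding in the endoplasmic reticulum, gave -0.71 and -0.51, and Sec24d, a coat protein of vesicles that leave it, gave -0.62. Fitm1 and Fitm2, which act in lipid droplet formation, gave -1.47 and -0.62. Slc2a1, a glucose transporter, gave -0.95. Car3, a carbonic anhydrase abundant in male liver, was higher (0.96), as were Leap2, a liver peptide hormone (0.83), and Ass1, an enzyme of the urea cycle (0.54).

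Of the 75 genes called with p65 intact, 18 lay on chromosome 4. Between 140 and 157 Mb of that chromosome, a window chosen after its values were seen, 155 genes were tested. Of these, 10 were called with p65 intact (6.45% against 0.55% of all genes) and 2 with p65 deficient (1.29% against 1.78%). The Nrf2 term called 1 there, Fam131c (0.645% against 0.403%), and the interaction called 10 (6.45% against 0.455%). Zfp982 had 158, 200 and 142 normalized counts in control and 1.98 and 0 in Nrf2 KO, against 148 and 113 in p65 KO and 61.0, 92.0 and 108 in DKO. Tmem51 had 96.1, 115 and 106 in control and 605 and 859 in Nrf2 KO, against 186 and 130 in p65 KO and 109, 77.4 and 84.7 in DKO. Genotype and mouse line cannot be told apart here. The 22 major urinary protein genes tested had a median of -0.90 with p65 intact, 18 of them negative, and of 2.39 with p65 deficient, where all 22 were positive. For 9 of the 22 the interaction had an adjusted p of at most 0.05, and 0 passed for the Nrf2 term, in which opposite effects cancel.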
